A study of Mus musculus with 2 samples.

Results

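The ATP-binding cassette (ABC) transporter genes were examined in peritoneal macrophages of MeXis null mice and of wild-type (WT) mice. All array rows for which the file gave a mouse ABC symbol of subfamilies A to G were taken, whatever their signal. This gave 50 genes read by 111 probes, each printed as 1 spot, among 37008 gene names and 59305 non-control spots. MeXis is a long noncoding RNA gene near Abca1. The MeXis null and the WT array each held Cy3-labelled total RNA pooled from 3 samples of macrophages, the mice being given as bl6 for both and the cells kept in serum-containing DMEM with antibiotics (P/S). How the null allele was made, the age and sex of the mice and any lipid or drug treatment are not given in the sources used here. With 1 array per genotype there was no replicate, no test and no p-value.

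ABC proteins bind and hydrolyse ATP, and most use it to carry lipids, peptides, drugs or metabolites across a membrane. In macrophages Abca1 passes cholesterol and phospholipid to lipid-poor apolipoprotein A-I, and Abcg1 promotes transfer of sterol to HDL particles. Both genes are activated by the liver X receptors (LXR), which sense oxysterols and bind DNA with RXR. LXR binds direct repeats of a hexamer that are parted by 4 bases. Other members export drugs and organic anions, serve mitochondria, peroxisomes and lysosomes, or act on ribosomes without crossing any membrane.

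The sequences below are 1 promoter and several probes. The differences reported here were read from probes, and none was read from the promoter. The Abca1 promoter is shown because it holds a loose match to the receptor-type repeat, and binding to it was not tested. It is the 250 bases before the RefSeq start, chr4:53159896-53160145 of GRCm38.p6 on the minus strand, written 5′ to 3′ along the gene, with the repeat and an E-box in capitals.
Abca1 promoter: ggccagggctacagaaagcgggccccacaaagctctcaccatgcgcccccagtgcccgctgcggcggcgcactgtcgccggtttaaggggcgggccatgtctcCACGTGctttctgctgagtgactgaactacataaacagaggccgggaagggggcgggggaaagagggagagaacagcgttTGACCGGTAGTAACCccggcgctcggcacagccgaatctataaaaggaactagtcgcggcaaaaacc
The repeat lies 67 to 53 bases before the start and reads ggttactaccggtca on the strand opposite to the gene. A loose form, GGTNA followed after any 5 bases by GGTCA, was searched on both strands of windows of 250 bases before and 50 after the start. This form was chosen after the Abca1 promoter had been read, so its match in Abca1 was known beforehand. It was found in 1 of the 38 ABC genes with a RefSeq window (2.63%), namely Abca1, and in 0.226% of all 27025 genes with such a window. Abcg1, Abcc3 and Abcd2 had no such window, so their promoters were not searched. The strict form, AGGTCA repeated after any 4 bases, was in 0 of the 38 genes and in 0.0148% of all genes. The E-box CACGTG was in 6 of the 38 genes (15.8%) and in 8.09% of all genes. In Abca1 the E-box and the repeat do not overlap. A match describes the letters in this window only.

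Probes of Abca1, Abcc3, Abcd2 and Abcb4, which were at least 2-fold lower in MeXis null, are shown next, because each difference is read from 1 short stretch of transcript. Positions are those of the scanner files (mm9). Of most probes 30 of the 60 bases are given, and AATAAA, the usual polyadenylation signal, is in capitals. It was searched on the probe's own strand and was in 12.6% of the 111 ABC probes and 9.77% of all 56605 probes.
Abca1 3′ probe, first 30 bases, chr4:53043944-53044003, minus strand: gttgcatccctttttgtagaacatttatat
Abca1 splice-crossing probe, whole, chr4:53048405-53049145, minus strand: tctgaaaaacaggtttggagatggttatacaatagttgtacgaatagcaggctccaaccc
Abcc3 3′ probe, last 30 bases, chr11:94204612-94204671, minus strand: tccactgatgaAATAAAgctgtagtcaaca
Abcd2 brighter probe, last 30 bases, chr15:90976316-90976375, minus strand: ttgtcccaaattttggtgtgtcAATAAAag
Abcb4 3′ probe, first 30 bases, chr5:8959108-8959167, plus strand: agctgctggcgcagaagggcatctatttct
The splice-crossing Abca1 probe spans 741 bases of the genome. The Abcc3 and Abcd2 probes hold the polyadenylation hexamer. Of the 22 genes with several probes whose chosen probe was above background on both arrays, the chosen probe was the most 3′ of them in 18.

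Both arrays had 62976 features, and 26257 non-control spots (44.3%) on the MeXis null array and 28463 (48.0%) on the WT array were well above background by the scanner software's mark. The lowest such signal was 27.3 on MeXis null and 12.1 on WT, so a dim gene was called more easily on WT. The labels could not be checked on the transcript they name: the single MeXis probe read 8.44 on MeXis null and 12.3 on WT, not well above background on either. All 8 macrophage markers were above background on both arrays, among them Adgre1, Cd68, Csf1r and Lyz2. Signals were divided by each array's 75th percentile of detected spots (3723 on MeXis null and 3535 on WT), and a difference is log2 of MeXis null minus log2 of WT after this scaling. The signals quoted for genes and probes are those before scaling. The only error between spots came from 285 probes printed at least 5 times: differences among spots of a probe had a median SD of 0.47, which put the normal 95% range of this spread at 0.91 (1.88-fold) on either side of 0; this is called the spread limit. Of the 285 probes, 274 had a mean signal of at least 1000, so the spread limit rests mostly on bright spots and says little about dim ones. The scanner's own error of a difference had a median of 0.20 over the detected ABC genes, and a difference counts as beyond it when outside its normal 95% range.

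Of the 50 ABC genes, 33 (66.0%) were above background on both arrays, against 42.1% of all gene names. Abca6 was above background on MeXis null only, and the other 16 on neither array. Those 16 were Abca4, Abca8a, Abca12 to Abca17, Abcb5, Abcb11, Abcc2, Abcc6, Abcc8, Abcc9, Abcc12 and Abcg5. With the chosen probe of each, the readings ran between 5.37 and 31.7 on MeXis null and between 3.76 and 23.6 on WT. No fold is given for them.

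Abcb4, Abcg1, Abcc3, Abca1 and Abcd2 were at least 2-fold lower in MeXis null, that is 5 of 33 members (15.2%), where 4.55% of all 15576 detected genes were. Abca5 alone was at least 2-fold higher, 1 of 33 (3.03%), where 7.68% of all detected genes were. At 1.5-fold, which lies inside the spread limit, the lower members were 8 (24.2%) against 13.8% of all genes, and the higher members 4 (12.1%) against 19.3%. The family as a whole did not lie to one side: its median difference was 0.04, with quartiles of -0.45 and 0.42, and that of all detected genes 0.06, with quartiles of -0.34 and 0.45. Members lay below 0 in 15 cases and above 0 in 18. The scanner software had marked the WT spots of Abcb4 and Abcg1 as non-uniform, and no ABC spot on the MeXis null array. With marked spots left out, 3 of 31 members (9.68%) were at least 2-fold lower.

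**Figure D1:**
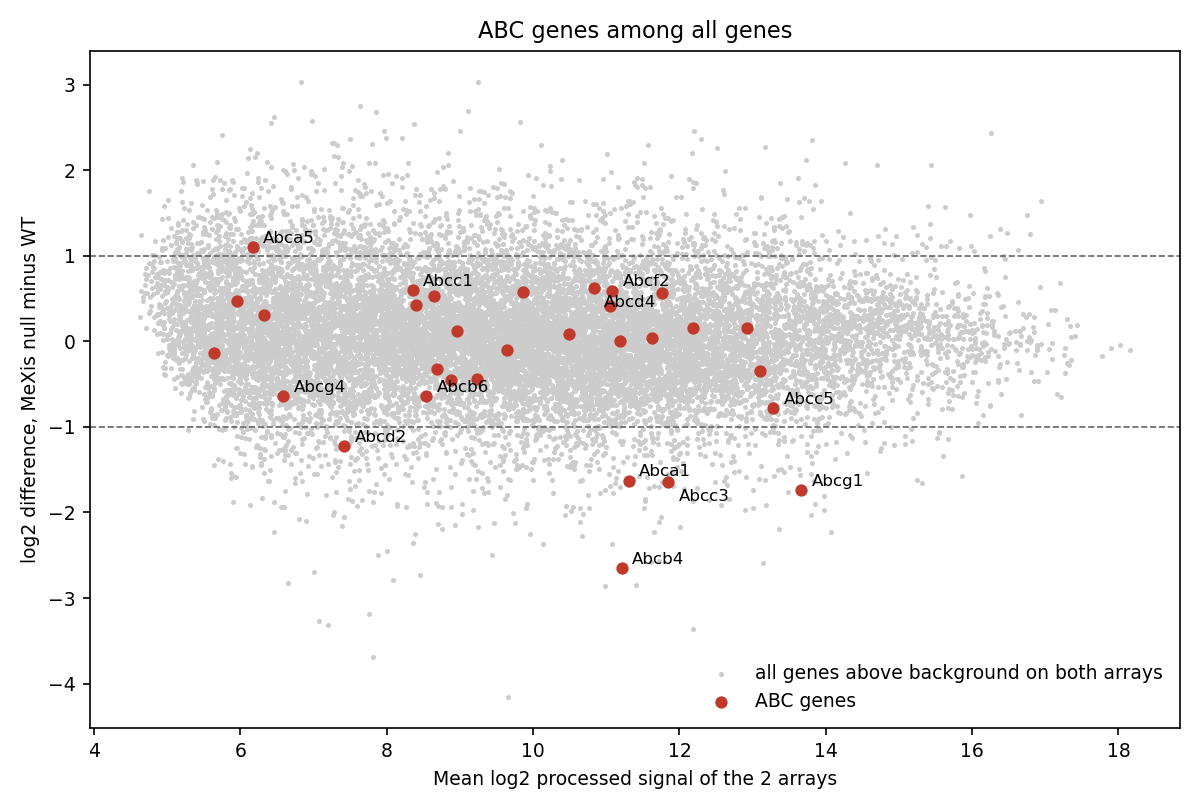
Each grey point is a gene above background on both arrays, each red point an ABC gene reported here; the x axis is the mean log2 processed signal of the arrays and the y axis the log2 difference of MeXis null minus WT, with dashed lines at 2-fold. Abcb4, Abcg1, Abcc3, Abca1 and Abcd2 lie below the lower line and Abca5 above the upper one.

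Among the cholesterol and phospholipid exporters, Abca1 and Abcg1 were both about 3-fold lower in MeXis null. Abca1 read 1478 on MeXis null and 4339 on WT with its 3′ probe. The difference was -1.63, or 3.09-fold lower in MeXis null, outside the spread limit of 0.91, and neither spot was marked. The splice-crossing Abca1 probe read 12.1 on MeXis null, not well above background, and 78.9 on WT. Set against the lowest signal above background on MeXis null, 27.3, the scaled WT signal made this 3.05-fold lower. Such a fold is called a nominal bound and is not a strict limit. It holds no signal error, and a spot without the background mark could read above 27.3, as Cd3d did at 53.6. Both probes thus had the lower signal in MeXis null, although the difference of the second, -2.78 with a scanner error of 1.46, was not beyond that error.

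Abcg1, read by 1 probe, gave 7304 on MeXis null and 23160 on WT. The difference was -1.74, or 3.34-fold lower in MeXis null. Its WT spot carried the non-uniformity mark: the 47 pixels had a coefficient of variation of 37.4%, where the median spot above background on WT had 20.1% and the 95th percentile was 33.2%. The MeXis null spot was even, at 8.58%. The mean and the median pixel were 7370 and 7334.5 on MeXis null, and 23396 and 19735 on WT. Taken from the median pixels, the difference was -1.50, again lower in MeXis null. The spread limit came from processed signals, and no such limit was computed for median pixels.

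The other members of this role were smaller in difference. Abcg4, a sterol transporter known mainly from brain, read 78.8 on MeXis null and 117 on WT, a difference of -0.64. Abcg8, which pairs with Abcg5 to export plant sterols and cholesterol in liver and gut, read 75.02 on MeXis null and 51.2 on WT (0.48), while its partner Abcg5 was not above background. Abca7, a phospholipid transporter linked to phagocytosis, read 5059 on MeXis null and 4325 on WT with its brighter probe (0.15) and 268 and 185 with the other (0.46). None of these 3 exceeded the spread limit. Of the 5 detected genes of this role, 2 were at least 2-fold lower and 0 higher, where 4.55% and 7.68% of all detected genes were.

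**Figure D2:**
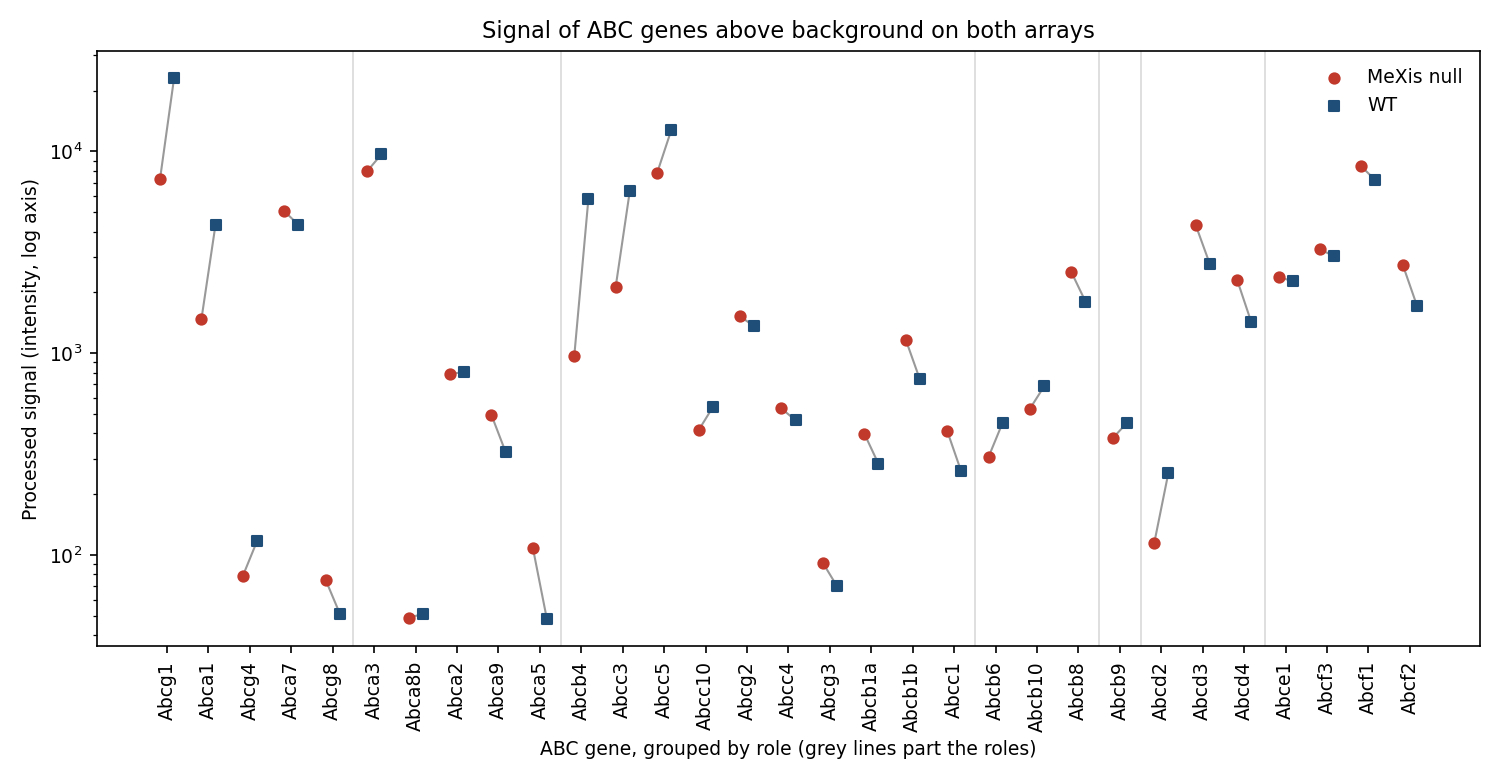
Processed signal (log axis) of the chosen probe of the ABC genes above background on both arrays that are reported here, red circles for MeXis null and blue squares for WT, with genes in the order efflux, other subfamily A, drug and anion export, mitochondrial, lysosomal, peroxisomal and cytosolic. Signals are shown before the 75th percentile scaling, which the reported differences include. Levels may be compared between the arrays within a gene only roughly, and not between genes. The red circle lies farthest below its square in Abcb4, Abcg1, Abcc3, Abca1 and Abcd2.

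Among the other transporters of subfamily A, which move lipids in lysosomes, lamellar bodies and other compartments, none was 2-fold lower. Abca5, a lysosomal member, read 108 on MeXis null and 47.9 on WT, 2.15-fold higher in MeXis null. This rested on 1 of its 4 probes. The 2 most 5′ Abca5 probes were above background on WT only (5.79 and 8.10 on MeXis null, 23.1 and 34.9 on WT), which is the opposite direction, and neither was beyond its scanner error. Abca6 read 55.0 on MeXis null and 6.26 on WT with the probe above background on MeXis null, a nominal bound of 4.32-fold higher. Its other probe was above background on neither array, at 20.0 on MeXis null and 16.3 on WT. Abca9, which lies beside Abca6 on chromosome 11, read 494 on MeXis null and 325 on WT (0.53), Abca8b 48.8 and 51.0 (-0.14), Abca2 792 and 804 (-0.10) and Abca3, the surfactant lipid transporter, 7977 and 9656 (-0.35). Those 4 lay within 1.5-fold.

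The exporters of drugs, bile acids and organic anions split. Abcc3, an exporter of bile salts and glucuronide conjugates, read 2138 on MeXis null and 6358 on WT with its 3′ probe, a difference of -1.65 (3.13-fold lower) with no mark on either spot. Its second probe read 22.6 on MeXis null, not above background, and 72.1 on WT, a nominal bound of 2.78-fold lower. The difference of that probe, -1.75, was beyond the scanner error of 0.53. Abcc3 was the only member besides Abca1 in which a second probe gave a nominal bound beyond 2-fold in the same direction.

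Abcb4, the phosphatidylcholine floppase of bile canaliculi, had the largest difference among the detected members in the processed signal, read from an uneven spot. It read 972 on MeXis null and 5798 on WT, a difference of -2.65 (6.28-fold lower). The WT spot was marked non-uniform, kept 36 pixels and had a coefficient of variation of 184%, against 15.6% for the MeXis null spot. The mean and the median pixel were 935 and 898.5 on MeXis null, but 4941 and 641.5 on WT. From the median pixels the difference was 0.43, higher in MeXis null. A second probe read 8.72 on MeXis null and 18.9 on WT, above background on WT only, and its difference of -1.19 was not beyond the scanner error. The count of 5 lower members thus holds 1 gene whose direction differs between the mean and the median pixel.

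**Figure D3:**
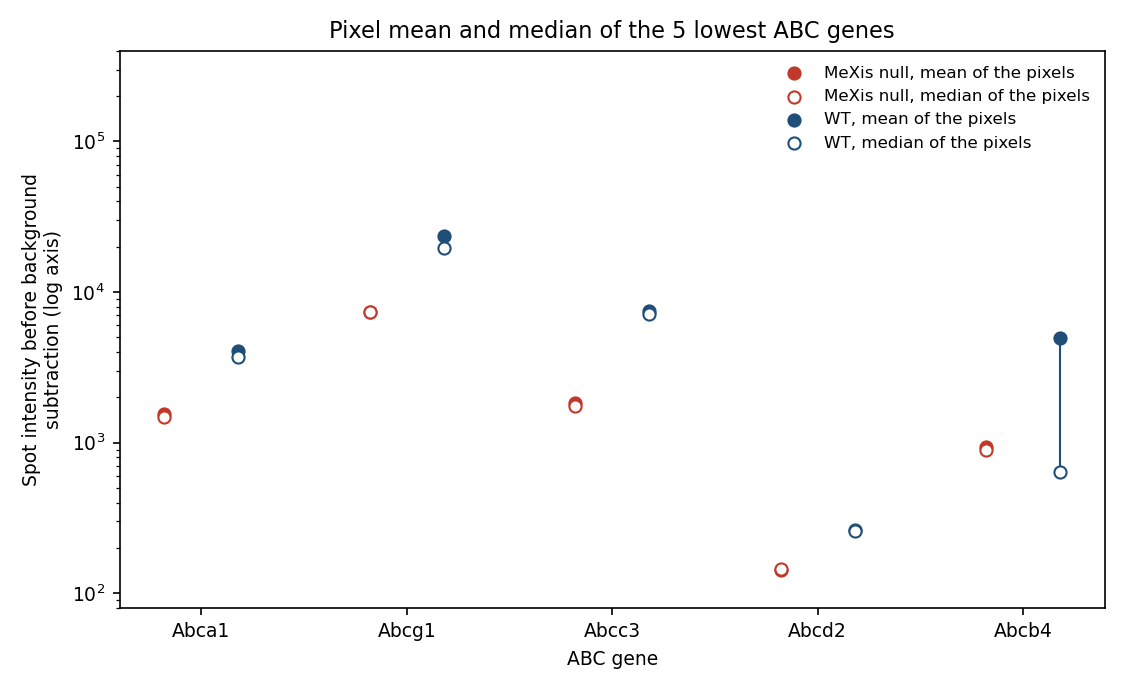
Mean (filled) and median (open) pixel intensity of the spot, before background subtraction and on a log axis, for the 5 ABC genes at least 2-fold lower in MeXis null, red for MeXis null and blue for WT. The mean and median lie close together except in the WT spot of Abcb4, where they are 4941 and 641.5, the median being below the 898.5 of MeXis null.

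The remaining exporters of this role stayed within the spread limit. Abcc5, which exports cyclic nucleotides and other anions, was read by 6 probes, all above background on both arrays. Its brightest probe read 7830 on MeXis null and 12734 on WT (-0.78), but the 6 differences ran from -0.78 to 0.59, with 3 below and 3 above 0 and a median of 0.07. Abcc1, the exporter of glutathione conjugates and leukotriene C4, read 413 on MeXis null and 259 on WT with one probe (0.60) and 157 and 207 with the other (-0.48). The P-glycoprotein genes Abcb1a (0.42) and Abcb1b (0.58) were both slightly higher, at 400 and 1169 on MeXis null and 284 and 743 on WT. They are close copies, and whether their probes tell them apart was not tested. Abcg2, the breast cancer resistance protein gene, read 1523 on MeXis null and 1361 on WT (0.09), and Abcc4, which exports cyclic AMP and prostaglandins, 532 and 465 (0.12). Abcg3 differed by 0.31 and Abcc10 by -0.45.

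The transporters of organelles differed little apart from Abcd2. Abcd2, a peroxisomal importer of very long-chain fatty acyl-CoA, read 115 on MeXis null and 255 on WT, a difference of -1.22 (2.34-fold lower). A second Abcd2 probe was above background on WT only, at 15.4 on MeXis null and 34.1 on WT. It lies 3′ of the brighter probe and of the AATAAA in that probe. Whether the main transcript reaches it was not tested. The nominal bound from this second probe was 1.32-fold lower, and its difference of -1.22 was not beyond the scanner error. The peroxisomal membrane protein gene Abcd3 was higher by 0.57, and the cobalamin transporter gene Abcd4 by 0.62. Abcd3 read 4318 on MeXis null and 2771 on WT, and Abcd4 2311 and 1429. Both lay inside the spread limit, and both, after subtracting the median difference of the 100 nearest detected spots, were nearer 0, Abcd3 at 0.16 and Abcd4 at -0.02.

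In mitochondria, the porphyrin transporter Abcb6 read 306 on MeXis null and 452 on WT (-0.64) and Abcb10, needed for heme synthesis, 531 and 684 (-0.44). Abcb8 (0.41, with 0.43 from a second probe) was within 1.5-fold. The lysosomal peptide transporter Abcb9 was at -0.33. Of the cytosolic members, 3 lay within 1.5-fold and Abcf2 just outside it. The ribosome recycling factor Abce1 read 2393 on MeXis null and 2268 on WT (0.00), the translation factor Abcf1 8422 and 7189 (0.15), Abcf3 3269 and 3028 (0.04) and Abcf2 2737 and 1723 (0.59). Abcf2 was at -0.18 from the median pixels. The 5 Abcf1 probes ran from -0.71 to 0.21. Tap1 and Tap2, the ABC proteins that transport peptides for MHC class I and have other symbols, differed by -0.12 and 0.39, and Cftr was not above background.

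**Figure D4:**
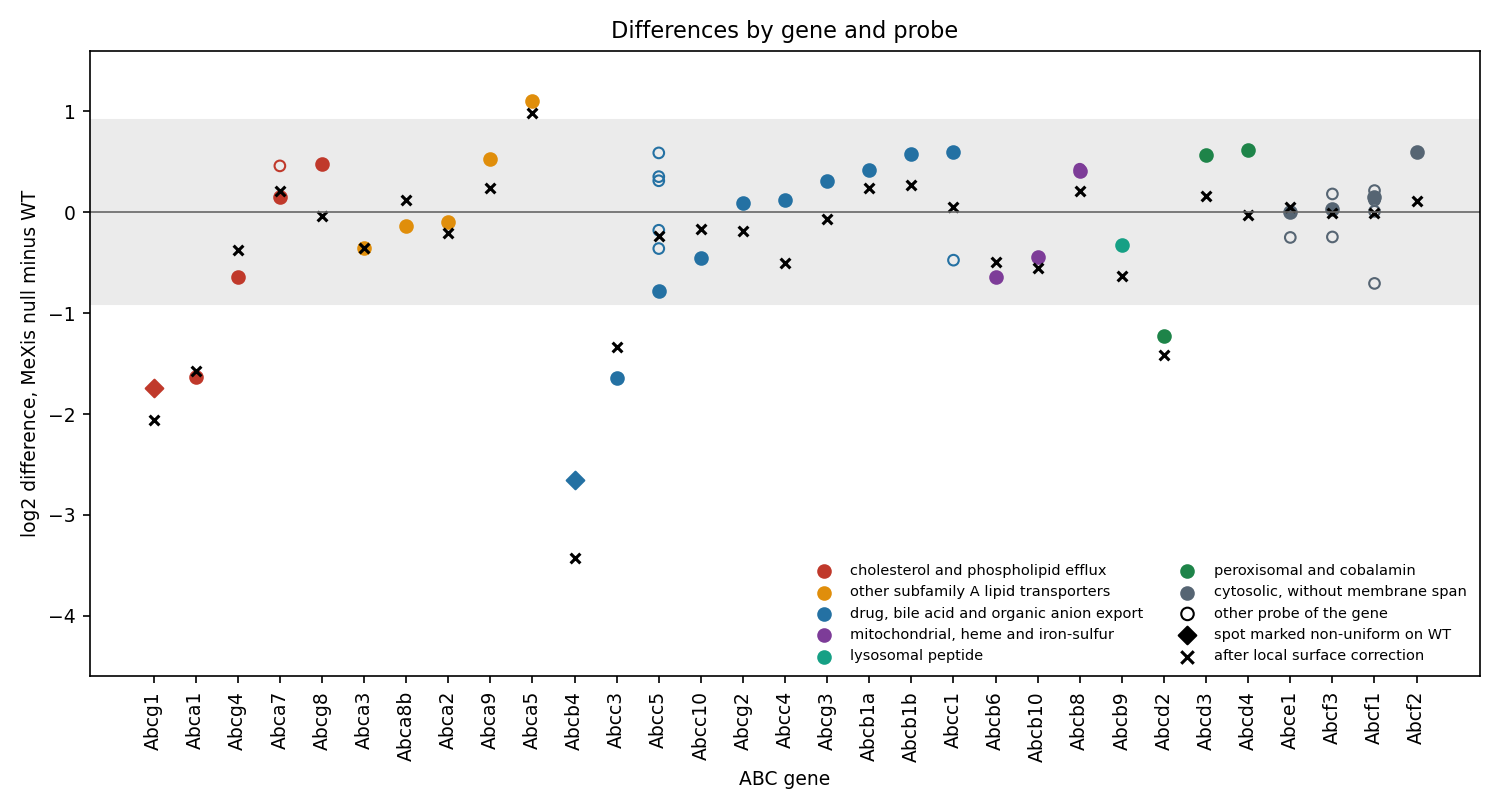
The log2 difference of MeXis null minus WT for the ABC genes reported here, coloured by role, with the chosen probe filled, other probes above background on both arrays open, spots marked non-uniform on WT as diamonds and the value of the chosen probe after local surface correction as a cross; the grey band is 0.91 on either side of 0. Abcg1, Abca1, Abcb4, Abcc3 and Abcd2 lie below the band with and without the correction. The band rests mostly on bright spots.

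Probes of the same gene give a second measure of error. In 8 members at least 2 probes were above background on both arrays, and in 5 of these the probes took both signs: Abcc1, Abcc5, Abce1, Abcf1 and Abcf3. The SD between probes ran from 0.01 in Abcb8 to 0.76 in Abcc1, each with 2 such probes. It was 0.52 over the 6 Abcc5 probes and 0.38 over the 5 Abcf1 probes, beside 0.47 between spots of a probe. The 5 members at least 2-fold lower in MeXis null were not among these 8, so this measure does not cover them. None of the probes of these 8 members lay 2-fold from 0.

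The arrays also carried uneven signal across their surface. Subtracting the median difference of the 100 nearest detected spots lowered the SD between spots of a probe to 0.33. The amount subtracted ran from -0.54 to 0.77 over the detected members, and 22 of them then lay below 0 and 11 above. The 5 lower members were the same: Abcb4 was at -3.43, Abcg1 at -2.06, Abca1 at -1.58, Abcd2 at -1.41 and Abcc3 at -1.34. Abca5 was at 0.99, just under 2-fold. Abcc5 was at -0.23, and the 2 Abcc1 probes, of opposite sign before, were at 0.05 and -0.17. With this correction 3.46% of all detected genes were at least 2-fold lower.

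**Figure D5:**
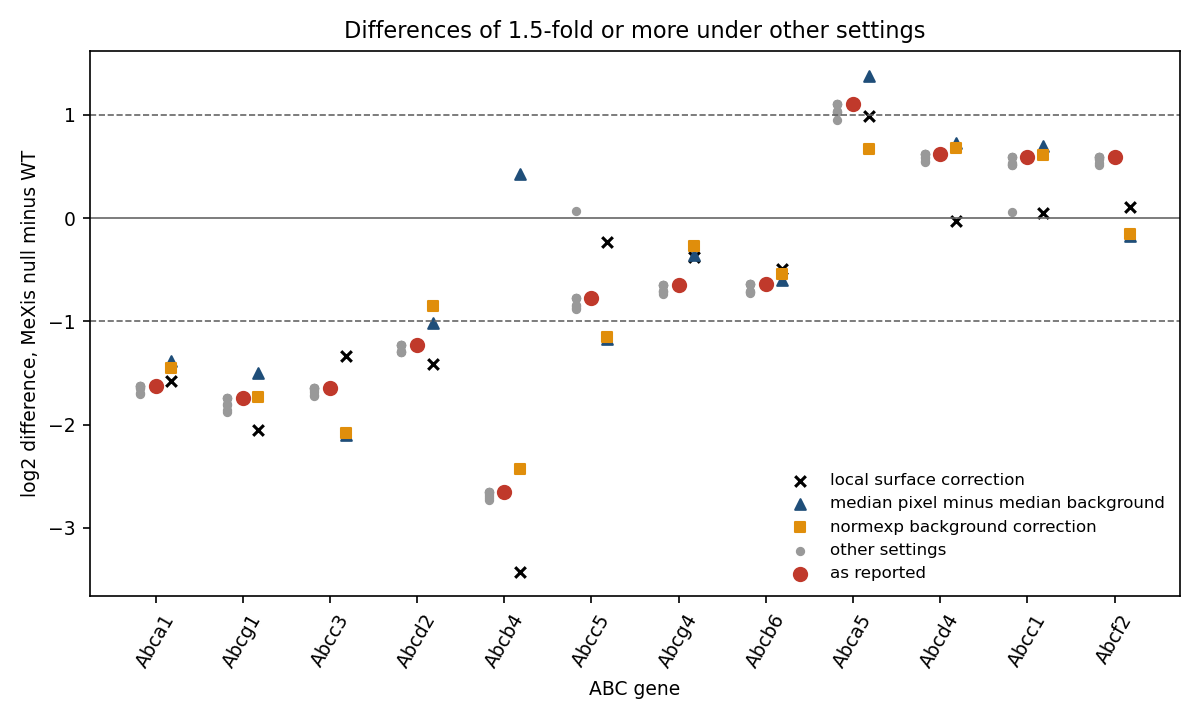
The log2 difference of MeXis null minus WT under each processing setting for the 12 ABC genes at least 1.5-fold apart, with the value as reported in red, 3 settings given their own symbols and dashed lines at 2-fold. Abca1, Abcg1 and Abcc3 stay below the lower line in each setting that gives a value, whereas Abcb4 lies at 0.43 from median pixels.

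The genes that supply or take over the cholesterol handled by these transporters differed in both directions. Of 24 listed partners, 21 passed the background mark on both arrays. Past 2-fold lay 2 on the lower side and 2 on the higher side, where 4.55% and 7.68% of all detected genes lay, and the median was 0.04 beside 0.06 for all detected genes. The oxysterol-forming enzymes Cyp27a1 (157 on MeXis null and 49.9 on WT, 1.57) and Ch25h (76.2 and 34.3, 1.08) were the higher pair. Mylip (-1.42), which directs LDL receptor breakdown, and the HDL receptor Scarb1 (-1.27) were the lower pair. After local surface correction Cyp27a1 (1.07) and Mylip (-1.48) were still past 2-fold, whereas Ch25h (0.79) and Scarb1 (-0.97) were not. Of the receptors that activate Abca1 and Abcg1, Nr1h3 read 7494 on MeXis null and 12478 on WT (-0.81), and Nr1h2 16060 and 14819 (0.04). Their partners Rxra (-0.23) and Rxrb (-0.37) were within 1.5-fold. Npc1, which releases cholesterol from lysosomes, read 17084 on MeXis null and 8293 on WT (0.97), and Npc2 35641 and 30024 (0.17). The same correction put Npc1 at 0.57 and Npc2 at 0.21. Proteins that bind or traffic Abca1 ran from the syntaxin gene Stx12 (-0.37) through the syntrophin gene Sntb2 (0.23) to Cops3 (1.00) and Arf6 (1.00), the last 2 at 0.49 and 0.51 after local surface correction. Nceh1 was at -0.71, Pltp at -0.69, Arl4c at 0.22, Apoe at 0.18, Soat1 at -0.01 and Lipa, a marked spot, at -0.01. Apoa1, Cav1 and Lcat were above background on neither array.

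Markers of other cells moved beside these values. Fibroblast markers (6 of 6 above background on both arrays) summed to 3.43 on MeXis null and 2.04 on WT, in units of the array's 75th percentile, and mesothelial markers (5 of 5) to 0.450 and 0.187. B cell markers (4 of 5, Pax5 on WT only) summed to 0.215 on MeXis null and 0.587 on WT, and macrophage markers (8 of 8) to 122 and 85.7. Most of the macrophage sum came from Cd68 and Lyz2. Macrophage markers ran from Mertk at -1.95 to Lyz2 at 1.25, with Csf1r at -0.86. Their median was 0.49, and -0.02 after local surface correction. The medians of fibroblast, mesothelial and B cell markers were 0.94, 0.81 and -1.13, and 0.82, 0.58 and -1.25 after that correction. T cell, eosinophil, mast cell, neutrophil and endothelial markers were above background on both arrays in 2, 1, 1, 1 and 2 of 4 each, with Cd3g, Epx, Prg2, Ccr3, Kit, S100a9, Ly6g, Mpo and Cdh5 above background on neither. On WT only were the mast cell genes Cpa3 (6.32 on MeXis null and 37.1 on WT) and Cma1 (8.24 and 60.6, nominal bound 2.34-fold lower). So were the endothelial gene Pecam1 (12.8 on MeXis null and 58.3 on WT, nominal bound 2.25-fold lower) and the T cell gene Cd3d. Cd3d read 53.6 on MeXis null and 50.8 on WT (0.00), so only its background mark differed. Among markers of these cell types detected on both arrays, Cd2 (-1.27), Cd3e (-0.49), Siglecf (-0.73) and S100a8 (-0.45) were lower in MeXis null. The mast cell gene Tpsb2 (0.29) and the endothelial genes Kdr (0.32) and Vwf (0.13) were higher. The summed signals were 0.0753 on MeXis null and 0.113 on WT for T cells, 0.420 and 0.691 for eosinophils, and 0.0976 and 0.104 for mast cells. They were 0.107 on MeXis null and 0.133 on WT for neutrophils, and 1.57 and 1.43 for endothelium. Most of the sum came from Siglecf for eosinophils, Tpsb2 for mast cells, S100a8 for neutrophils and Vwf for endothelium. The part of other cells in the ABC differences was not tested. In such bulk RNA fewer cells of a type and less RNA per cell cannot be told apart.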

How the data were processed

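The deposited scanner files hold spot intensity on a linear scale; per the file headers they were made with Agilent Feature Extraction 11.5.1.1, with background subtraction and detrending, with probe coordinates on mm9. Outlier and well-above-background marks are other columns that the authors deposited in those files. On both arrays the deposited series matrix held the same number as the processed signal for each of 62976 features (medians 17.0 on MeXis null and 12.9 on WT), so it is linear and not centred.

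Each value was the processed signal's log2 less the log2 of the array's 75th percentile over 25060 unmarked spots above background on both arrays. Marked spots of members were kept. A gene was read from the probe brightest on average over the arrays. Other genes were named through the RefSeq table (GRCm38.p6), from which only names were taken: 34173 spots by accession, 10341 by symbol, 520 by synonym and 14271 by the file's name. A gene above background on 1 array was bounded against the higher of its own dim signal and the lowest signal above background there. This bound is nominal, since it holds no signal error and spots without the background mark can read above that lowest signal. Every member could be named; a few genes and a probe sequence are not reported here, although the counts include the genes. The number of arrays limits the precision. The members and lists were chosen with earlier results of these data known. The steps were tested on simulated data. Tools were Python 3.11.15, numpy 2.4.6, pandas 2.3.3, R 4.3.3 and limma 3.58.1. Alternatives were normexp background correction (offset 50), quantile, loess (span 0.3) and median scaling, the percentile of all non-control spots, local surface correction, the matrix values, median pixels, marked spots left out, the median of a gene's probes, other dim filters and other folds.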

Additional observations from a re-analysis of the deposited data

How the results depend on the processing

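Without replicates, only the processing could be varied. Abca1 ranged from -1.70 to -1.39 and Abcg1 from -2.06 to -1.50 over the settings tried; with marked spots left out Abcg1 has no value. Abcc3 ranged from -2.11 to -1.34, and Abcd2 from -1.41 to -0.85, the last with normexp background correction. The count of members at least 2-fold lower was 3 with marked spots left out and 8 at 1.5-fold, and 5 under the other settings except 4 at 3-fold. With normexp Abcc5 replaced Abcd2 among the 5, and from median pixels Abcc5 replaced Abcb4. The count at least 2-fold higher, 1 as reported, was 0 with normexp, loess, local surface correction, a signal of at least 50 on both arrays and a 3-fold threshold, 4 at 1.5-fold, and 7 with no filter on dim probes, when 17 further genes not above background on both arrays enter. Reversed in sign were Abcb4 (0.43) and Abcf2 (-0.18) from median pixels, Abcf2 with normexp (-0.15), Abcc5 by the median of its probes (0.067) and Abcd4 with local surface correction (-0.023). For these the cause was not tested; the WT spot of Abcb4 had a mean pixel of 4941 and a median pixel of 641.5. The family median ranged from -0.17 with local surface correction to 0.27 with no filter, and its sign depended on the scaling, as did that of the partner list (-0.13 to 0.17). No filter moved the median of all genes to 0.47, with 4.79% of them at least 2-fold lower and 17.6% higher. The sign held under all settings for 17 of the 33 detected members. At 2-fold, local surface correction gave 3.46% of all genes lower and 3.65% higher. No paired analysis was possible because each genotype had 1 array; for the same reason no array could be left out in turn.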
